A study of Mus musculus with 16 samples.

Results

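The comparison described here is the plain bleomycin injury response of the mouse lung: 6 lungs given bleomycin against 2 given phosphate-buffered saline (PBS), all 8 of which had also received a control blocker. They were chosen by their sample titles and make up 8 of the 16 samples of the study. Every gene with a name on the array was used, and 20304 genes were tested. The animals were C57BL/6 mice of 9 to 12 weeks. The study set a CAV1 target site blocker, an oligonucleotide made to cover a microRNA binding site in the Cav1 transcript, against a control blocker formulated for use in animals. Per the labels, each blocker was put into the trachea 4 and 2 days before the injury and again 4 days after it, and bleomycin, 1 unit/kg, or PBS was given by the same route. The other 8 samples received the CAV1 blocker, at 5 mg/kg, with bleomycin (6) or PBS (2). The control blocker lungs of both groups therefore had 3 tracheal instillations of an oligonucleotide in addition to bleomycin or PBS, and a lung without any instillation was not analysed here. The labels do not say when the lungs were taken, nor that each sample came from its own animal, and the p-values reflect only how far these samples vary, which may be technical.

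Bleomycin breaks DNA and kills alveolar epithelial cells. It is the usual way to provoke lung scarring in mice: injured epithelium and endothelium are followed by inflammation, in which blood monocytes enter the alveoli and become macrophages, and then by fibroblasts that lay down collagen, fibronectin and other matrix. Damaged cells also switch on p53 target genes, and the surviving alveolar type 2 cells pass through a keratin-rich transitional state as they replace the lost type 1 cells. In whole-lung RNA, fewer cells of a type and less RNA per cell cannot be told apart.

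Each lung was measured on 1 single-colour Agilent array, and the values are the authors' log2 signals. A difference of 1 on this scale is a 2-fold change. Differences are bleomycin minus PBS and come with their standard error (SE) and the Benjamini-Hochberg adjusted p of limma over all genes tested. A gene is said to have risen or fallen where this adjusted p was under 0.05. RNA integrity numbers were 10 in bleomycin arrays 1 and 5 and 9 in the other 6. Lung markers were bright in all 8 arrays: the surfactant gene Sftpc lay between 18.01 and 18.16, the club cell gene Scgb1a1 between 17.99 and 18.28, and the type 1 cell gene Ager between 14.39 and 15.55. The first pair lay close to the top of the scale, 18.28 in each array.

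The 8 samples did not hold lung alone. Transcripts of skeletal muscle and of squamous epithelium were high in both PBS arrays and in 4 of the 6 bleomycin arrays. Tnnc2, a fast skeletal muscle troponin, stood at 15.77 and 12.72 in PBS arrays 1 and 2 and at 13.65 to 14.28 in bleomycin arrays 1, 3, 4 and 5, but at 10.35 and 7.0 in bleomycin arrays 2 and 6. Lor, which encodes the cornified-layer protein loricrin, was 15.76 and 13.97 in the PBS arrays, 15.17 to 15.45 in the same 4 bleomycin arrays, and 6.86 and 6.94 in bleomycin arrays 2 and 6. Heart transcripts were bright in all 8 arrays, with the cardiac myosin gene Myh6 between 14.47 and 15.70.

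PBS array 1 carried further transcripts that PBS array 2 and the bleomycin arrays lacked. Rag1, which cuts antigen receptor genes in immature lymphocytes, was 9.87 in PBS array 1, 5.88 in PBS array 2 and 5.84 to 6.20 after bleomycin. Dntt, which adds bases at the joints of those genes, was 11.09 in PBS array 1, 6.62 in PBS array 2 and 6.89 to 7.24 after bleomycin. The thymus list, 10 genes, had a mean of 8.49 in PBS array 1, 6.57 in PBS array 2 and 6.66 to 6.79 after bleomycin. Myh2, a skeletal myosin, was 13.25 in PBS array 1 and between 5.91 and 6.47 in the other 7 arrays. Brown fat transcripts marked both PBS arrays: Ucp1, which lets brown fat mitochondria make heat, was 11.67 and 10.15 there and 6.27 to 8.09 after bleomycin. The adipocyte list, 13 genes, had a mean of 11.26 and 10.67 in the PBS arrays and 9.08 to 10.21 after bleomycin. Of the skeletal muscle (22 genes), squamous (24), adipocyte, heart (12) and thymus lists, 0 genes passed the limma test in this comparison, and 8, 1, 10, 2 and 5 had an unadjusted p under 0.05. Over all 20304 genes tested, 3221 had such a p, and that share belongs beside every list count of this kind, here and below. The thyroid marker Tg (6.62 to 7.28) and the cartilage marker Col2a1 (6.28 to 6.88) were low in all 8 arrays.

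**Figure D1:**
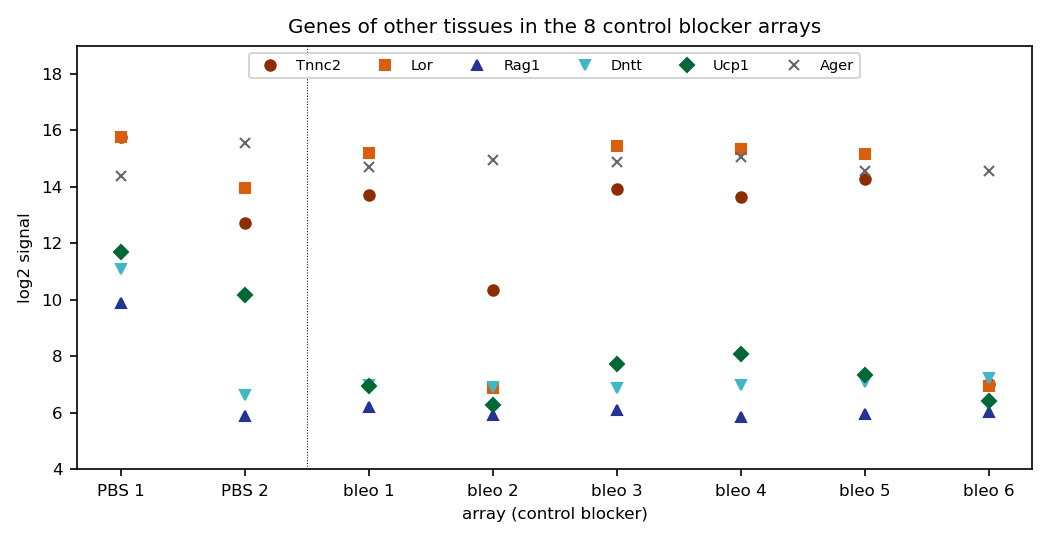
Log2 signal (vertical axis) of 5 genes of other tissues and of the lung gene Ager in the 2 PBS and 6 bleomycin control blocker arrays (horizontal axis), each point 1 array. Tnnc2 (skeletal muscle) and Lor (squamous epithelium) drop in bleomycin arrays 2 and 6, Rag1 and Dntt (thymus) stand up in PBS array 1 only, and Ucp1 (brown fat) is above 10 in both PBS arrays and at most 8.09 after bleomycin.

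The PBS arrays were less alike than any 2 bleomycin arrays. Between them 1469 genes differed by more than 1, against 41 to 468 (median 248) in the 15 pairs of bleomycin arrays. Each fit below therefore stands on how these 2 arrays are weighed, and without PBS array 2 most calls were lost. The accounts below give the calls that lists or genes kept without it, the named genes whose call was lost without PBS array 1, and genes described as not passing that passed without it. Either fit leaves 1 PBS array. A pass or a list count there belongs beside the number of all genes tested that were called in that fit, given below.

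With bleomycin, 398 genes rose and 91 fell, 489 in all or 2.41% of the genes tested (1.96% higher, 0.448% lower). Rises were the more common and included macrophage receptors, monocyte chemokines, matrix genes and genes of cell division, while falls included airway secretory genes and markers of resident alveolar macrophages. Of the rises, 97 were of at least 1 and 6 of at least 2, and of the falls 18 were of at least 1. The median rise was 0.74 and the median fall -0.71, beside 0.03 over all genes tested. The bleomycin and PBS arrays did not overlap in 488 of the 489 genes, the exception being Vgll2, beside 12.6% of all genes tested. Bleomycin array 5 was the highest array in 202 of the 398 risen genes and array 4 the lowest in 171. PBS array 1 lay nearer to the bleomycin mean than PBS array 2 in 338 of the 398 and in 59 of the 91.

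The 489 differences were nearly as large among the arrays that held muscle and squamous tissue. Without bleomycin arrays 2 and 6, every remaining control blocker array held such tissue. Each of the 489 then kept its sign, at 0.8294 to 1.217 times its size. This is no test of the sign, which could not change in the 488 genes whose groups do not overlap. The sizes rest on the same PBS arrays as before. In that fit 133 genes were called (0.655% of those tested), 128 of them among the 489. The choice of PBS array weighed more. Without PBS array 1, 4075 genes were called, 449 of the 489 among them, and without PBS array 2, 91 were called, 18 of the 489 among them. A fit that weights the arrays by their own spread (limma's array weights) called 0 genes, with 860 at an unadjusted p under 0.05, beside 3221 in the fit used here. With the mean of the skeletal muscle markers as a covariate 281 genes were called, 210 of the 489 among them. The part of fat transcripts in the results was not tested.

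Of the 489 genes, 15 passed with each of the 16 arrays of the study left out in turn and also without bleomycin arrays 2 and 6. The 13 that rose were Ccl2, Psrc1, Cxcl10, Ccl8, Krtap17-1, Wfdc17, Gdf3, Clca3a1, Upk3a, Calca, Lilrb4a, Bdkrb1 and Tgfbi, and the falls were Tff2 and Spag11b. Wfdc17, a small secreted protein of activated macrophages, had the smallest p of all genes: it was 11.70 and 11.18 in the PBS arrays and 12.81, 13.01 and 13.08 (lowest, median and highest) in the bleomycin arrays, a rise of 1.53 (SE 0.15, limma adjusted p = 0.000725). Lilrb4a, an inhibitory receptor of myeloid cells, was 12.56 and 12.43 with PBS and 13.51, 13.54 and 13.62 with bleomycin, a rise of 1.05 (SE 0.11, adjusted p = 0.000976). The 6 bleomycin arrays of this gene lay closer together than the PBS arrays did. Tgfbi, a matrix protein named for its induction by TGF-beta, was 13.24 and 13.43 with PBS and 13.93, 14 and 14.12 with bleomycin, a rise of 0.68 (SE 0.09, adjusted p = 0.00557).

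Other genes of this group were not classical fibrosis genes. Gdf3, a ligand of the TGF-beta superfamily, was 6.34 and 6.45 with PBS and 7.48, 7.81 and 7.95 with bleomycin, a rise of 1.36 (SE 0.20, adjusted p = 0.00806), though the dimmer of its 2 spots differed by 0.07. Calca, which encodes calcitonin and the neuropeptide CGRP, was 6.80 and 6.93 with PBS and 7.63, 7.92 and 8.12 with bleomycin (1.06, SE 0.17, adjusted p = 0.0107). Bdkrb1, a receptor for kinin peptides, was 6.80 and 7.11 with PBS and 7.30, 7.70 and 7.99 with bleomycin (0.74, SE 0.14, adjusted p = 0.0199). In each of these genes every bleomycin array stood above both PBS arrays. Kng1, whose product kininogen is the source of kinins, rose by 1.59 (SE 0.34, adjusted p = 0.0288), but its other spot differed by 0.004, and the call was lost without PBS array 2 (adjusted p = 0.27). Upk3a, a protein of the bladder lining, rose by 1.09, Clca3a1, a chloride channel accessory protein, by 1.23, and Krtap17-1, a keratin-associated hair protein, by 1.57.

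**Figure D2:**
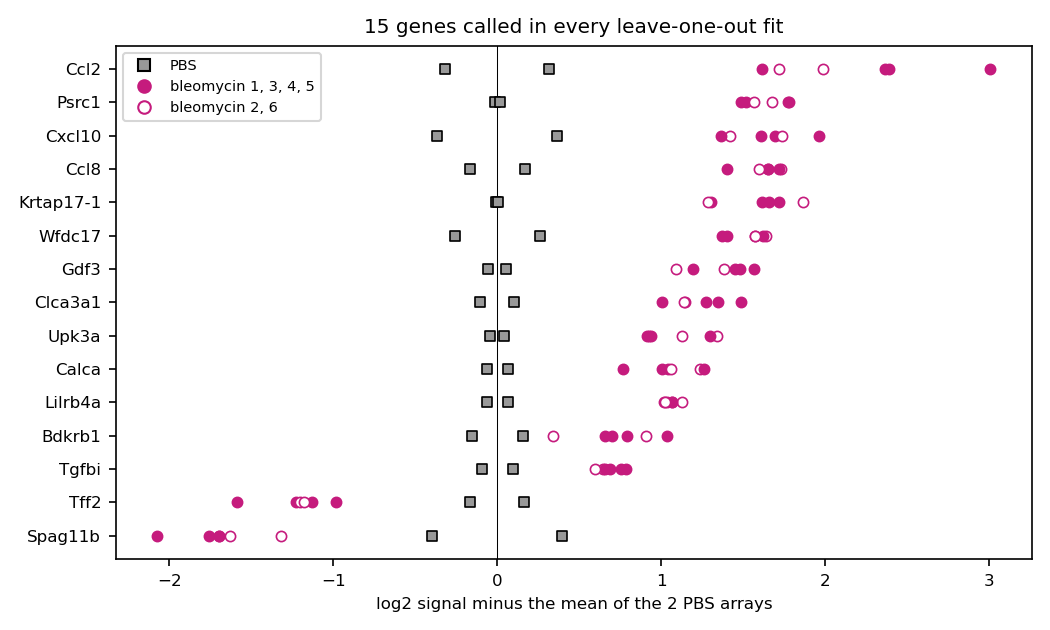
Log2 signal minus the mean of the 2 PBS arrays (horizontal axis) for the 15 genes that passed in every leave-one-out fit, 1 row a gene and 1 symbol an array. Squares are PBS arrays, filled circles bleomycin arrays 1, 3, 4 and 5, and open circles bleomycin arrays 2 and 6, which lie among the filled ones in most rows. All bleomycin arrays of a gene are on 1 side of both PBS arrays.

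Chemokines are the secreted signals that draw leukocytes into tissue. Of 38 chemokine and chemokine receptor genes tested, 8 rose and 0 fell (11 had negative differences that did not pass; 18 of the 38 had an unadjusted p under 0.05), with a median of 0.18. All 8 rises were ligands: the monocyte attractants Ccl2, Ccl7, Ccl8 and Ccl12, the CXCR3 ligands Cxcl9 and Cxcl10, the CCR4 ligand Ccl17, and Cxcl16. Ccl2, the main ligand of the monocyte receptor CCR2, was 8.50 and 7.87 in the PBS arrays and 9.80, 10.36 and 11.19 in the bleomycin arrays, a rise of 2.18 (SE 0.29, adjusted p = 0.00487). Bleomycin array 5 was the highest and array 4 the lowest, and the groups were more than 1 apart. Ccl8 was 10.33 and 9.99 with PBS and 11.56, 11.81 and 11.89 with bleomycin (1.63, SE 0.18, adjusted p = 0.000976). Cxcl10 was 8.51 and 7.77 with PBS and 9.50, 9.79 and 10.10 with bleomycin (1.63, SE 0.17, adjusted p = 0.000976), while its dimmer spot differed by 0.24. The list held 8 rises without bleomycin arrays 2 and 6, and 3 rises and 1 fall without PBS array 2. The neutrophil attractants Cxcl1 and Cxcl5 did not pass, with differences of 0.71 (adjusted p = 0.0945) and 0.83 (adjusted p = 0.054), and Cxcl5 passed without PBS array 1 (0.96, adjusted p = 0.0312).

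Of 28 genes of monocyte-derived macrophages, many of them receptors and surface proteins, 9 rose with bleomycin and 0 fell (22 differences positive, 6 negative, median 0.43). The risen genes were Ms4a7, Ms4a6d, Ms4a6c, Fcgr1, Fcgr2b, Clec4d, Clec4n, Adgre1 and Cx3cr1. Ms4a7, a membrane protein of macrophages that derive from blood monocytes, was 10.48 and 10.04 in the PBS arrays and 12.26, 12.48 and 12.61 in the bleomycin arrays, a 4.65-fold rise (log2 2.22, SE 0.32, adjusted p = 0.0071). Ms4a6d was 8.90 and 8.82 with PBS and 9.95, 10.05 and 10.23 with bleomycin (1.21, SE 0.18, adjusted p = 0.0071). Fcgr1, the high-affinity receptor for immunoglobulin G, was 7.77 and 7.33 with PBS and 8.39, 8.55 and 8.90 with bleomycin (1.03, SE 0.16, adjusted p = 0.0107). The bleomycin arrays of each of these genes lay above both PBS arrays. Ccr2, the receptor of Ccl2, differed by 0.55 (adjusted p = 0.0784) and Csf1r, the receptor that keeps macrophages alive, by 0.48 (adjusted p = 0.0585; -0.41 in its lowest spot), and neither passed. Without PBS array 1 both passed (adjusted p = 0.00124 and 0.00457), Clec4n did not (adjusted p = 0.0513), and the list held 11 rises and 2 falls, Ms4a4c (-0.94) and the lysozyme gene Lyz1 (-0.41). It held 5 rises without bleomycin arrays 2 and 6 and 0 without PBS array 2, where its median was 0.45 and Ms4a7 came to an adjusted p of 0.0558.

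Lysosomal and lipid-handling genes, which phagocytes use to digest debris, gave 10 rises and 0 falls among 31 (27 positive, median 0.57). Spp1, which encodes the secreted phosphoprotein osteopontin, had the largest rise of any gene, 7.52-fold. It was 10.54 and 11.03 with PBS and 13.06, 13.79 and 14.04 with bleomycin (log2 2.91, SE 0.64, adjusted p = 0.0302), with array 2 the highest and array 6 the lowest. Trem2, a receptor for lipids and dying cells, was 11.37 and 11.69 with PBS and 13.24, 13.37 and 13.67 with bleomycin (1.85, SE 0.46, adjusted p = 0.0469), and its signalling partner Tyrobp rose by 0.57 (SE 0.10, adjusted p = 0.0175). The proteases Ctss (1.36) and Ctsb (0.98), the scavenger receptor Msr1 (1.17), the cholesterol exporter Abca1 (0.85), the lipoprotein gene Apoc2 (0.89), the phospholipase Pla2g7 (0.67) and the lysosomal membrane protein Cd63 (0.60) rose too. Gpnmb, another gene of lipid-laden macrophages, differed by 1.42 but the PBS arrays stood far apart (10.84 and 11.82) and it did not pass (adjusted p = 0.202). Spp1 and Trem2 lost their calls without PBS array 2 (adjusted p = 0.157 and 0.218) and without bleomycin arrays 2 and 6 (0.0683 and 0.123), with differences of 3.16 and 2.02 and of 2.98 and 1.81. Trem2 did not pass without PBS array 1 either (1.69, adjusted p = 0.0658) and kept its call in 2 of the 16 leave-one-out fits. The list held 5 rises without bleomycin arrays 2 and 6, and 0 without PBS array 2.

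Of 18 markers of resident alveolar macrophages 3 fell and 0 rose, with 5 positive differences, a median of -0.42 and 12 at an unadjusted p under 0.05. Marco, a scavenger receptor for inhaled particles, was 13.28 and 12.82 with PBS and 11.71, 12.11 and 12.40 with bleomycin (-0.99, SE 0.21, adjusted p = 0.0253). Krt79, a keratin listed among the markers of these macrophages, was 11.97 and 12.42 with PBS and 10.54, 10.70 and 10.80 with bleomycin (-1.51, SE 0.32, adjusted p = 0.026). Mlxipl, which encodes the sugar-sensing transcription factor ChREBP, was 10.37 and 9.31 with PBS and 8.32, 8.66 and 8.89 with bleomycin (-1.18, SE 0.29, adjusted p = 0.045). ChREBP is abundant in fat as well, and the adipocyte list moved the same way, as given above. Pparg, the regulator on which these cells depend, was 11.26 in both PBS arrays and 10.64 to 11 with bleomycin, which did not pass (-0.39, adjusted p = 0.111). The list had 0 calls and a median of -0.48 without bleomycin arrays 2 and 6, and without PBS array 2 it had 1, Mlxipl (-1.72, adjusted p = 0.0332). Without PBS array 1, Mlxipl (-0.65, adjusted p = 0.168) and Marco (-0.76, adjusted p = 0.0548) did not pass, and the list held 2 falls, Krt79 and Car4, and 1 rise, Cd200r1.

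Genes of alternative macrophage activation did not move as a block. Of 20, 3 rose and 1 fell, and the median was 0.05. Retnla, a secreted protein of macrophages and airway cells under type 2 cytokines, was 14 and 13.25 with PBS and 14.99, 15.22 and 15.99 with bleomycin (1.73, SE 0.27, adjusted p = 0.00943). Il4ra, a chain of the receptors for interleukins 4 and 13, rose by 0.80 (adjusted p = 0.0372), while its other spot differed by -0.21. Chil4, a chitinase-like protein, was 9.20 and 10.27 with PBS and 8.40, 8.73 and 8.93 with bleomycin (-1.05, SE 0.22, adjusted p = 0.0273), and without PBS array 2 it came to -0.51 (adjusted p = 0.39), where Retnla and Il4ra did not pass either (0.108 and 0.257). Arg1, the usual marker of this state, differed by 0.04 (adjusted p = 0.97) with bleomycin arrays on either side of the PBS arrays.

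Among 29 inflammatory cytokine genes and their regulators, 6 rose and 0 fell (median 0.27): Il6, Il12b, Socs3, Nos2, Ptgs2 and Tnfrsf1b. Il6 was 6.74 and 6.32 with PBS and 7.21, 7.91 and 8.79 with bleomycin (1.44, SE 0.30, adjusted p = 0.0246), a wide spread with array 5 highest and array 4 lowest. Socs3, the feedback inhibitor that interleukin 6 signalling induces, was 11.73 and 11.64 with PBS and 12.23, 12.59 and 12.75 with bleomycin (0.87, SE 0.15, adjusted p = 0.0184). Nos2, the inducible nitric oxide synthase, rose by 1.05 (SE 0.20, adjusted p = 0.0199). Tnf (0.23, adjusted p = 0.521) and Il1b (0.68, adjusted p = 0.357) did not pass. Of 22 acute-phase genes 3 rose, Saa3, Ptx3 and Itih3, led by Saa3 at 9.83 and 8.76 with PBS and 10.46, 10.95 and 11.91 with bleomycin (1.82, SE 0.42, adjusted p = 0.036). Ptx3 was dim, at 6.37 and 5.99 with PBS and a median of 6.80 with bleomycin. Without PBS array 2 the cytokine and acute-phase lists had 0 calls each, with medians of 0.32 and 0.36.

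Interferon response genes are induced through a promoter element known as the ISRE. Of 38 tested 6 rose and 0 fell (30 positive, median 0.19): Mx1, Mx2, Isg15, Oas1a, Zbp1 and Ifi204, which belong to families of antiviral and nucleic acid sensing genes. Mx1 was 8.61 and 7.97 with PBS and 9.18, 9.29 and 9.63 with bleomycin (1.08, SE 0.19, adjusted p = 0.0166). Oas1a was 11.88 and 11.24 with PBS and 12.26, 12.44 and 12.82 with bleomycin (0.90, SE 0.18, adjusted p = 0.0237). Isg15 was 12.68 and 12.40 with PBS and 12.92, 13.24 and 13.67 with bleomycin (0.72, SE 0.17, adjusted p = 0.0382). Bleomycin array 2 was the lowest of its group in all 6 risen genes, and PBS array 2 the lower PBS array in each. Without bleomycin arrays 2 and 6 the list held 3 rises, and without PBS array 2 it held 0, with a median of 0.17.

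Matches to the ISRE (GAAA, any 2 bases, then GAAA again), sought on both strands in the 250 bases before each start site, were present in 13 of the 27 interferon list genes with a promoter in RefSeq (48.1%), beside 3.46% of the 15879 tested genes with one and 6.86% of the 306 risen ones. The stretches that hold them in Isg15, Oas1a and Cxcl10 are shown because these are risen genes with a match, read 5′ to 3′ on the gene's strand, with the matched bases in capitals (RefSeq, GRCm38.p6). They lie on the minus strand at chr4:156200850-156200921, chr5:120907526-120907570 and chr5:92349068-92349127, upstream of the respective start sites. A match describes the letters only and is no evidence of binding.
Isg15: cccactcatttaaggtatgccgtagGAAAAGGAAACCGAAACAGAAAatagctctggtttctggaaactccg
Oas1a: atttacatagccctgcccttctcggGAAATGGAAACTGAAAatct
Cxcl10: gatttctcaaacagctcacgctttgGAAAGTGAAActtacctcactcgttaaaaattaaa

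Genes of mitosis, the step at which copied chromosomes are pulled apart, held the largest share of rises among the lists. Of 44 tested 23 rose and 0 fell, 43 differences were positive, and the median was 0.96, beside 0.03 over all genes. The bleomycin and PBS arrays did not overlap in 36 of the 44, beside 12.6% of all genes tested. Prc1, which bundles microtubules between the separating chromosomes, was 9.33 and 8.62 with PBS and 10.29, 10.46 and 11.19 with bleomycin (1.64, SE 0.32, adjusted p = 0.022). Cdc20, the activator of the anaphase-promoting complex, was 9.97 and 9.66 with PBS and 10.71, 11.27 and 11.68 with bleomycin (1.40, SE 0.31, adjusted p = 0.0329). Ube2c, the ubiquitin-conjugating enzyme of that complex, was 8.99 and 9.16 with PBS and 9.51, 10.04 and 10.31 with bleomycin (0.94, SE 0.23, adjusted p = 0.0486), and did not pass without PBS array 1 (adjusted p = 0.0683). Bleomycin array 5 had the highest mean of the list (9.20) and array 4 the lowest (8.62).

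The kinase Cdk1, which starts mitosis, was 6.86 and 6.52 with PBS and 7.43, 7.67 and 8.04 with bleomycin (1.02, SE 0.23, adjusted p = 0.0339). Its partner cyclins Ccna2 (1.35, adjusted p = 0.0246) and Ccnb2 (1.32, adjusted p = 0.0451), the spindle kinase Aurka (1.21, adjusted p = 0.0414) and its activator Tpx2 (1.22, adjusted p = 0.0258), and the proliferation marker Mki67 (1.18, adjusted p = 0.0335) rose as well. PBS array 1 was above PBS array 2 in each of these, for Ccnb2 at 9.97 against 8.62. The DNA replication list, which covers the copying step before mitosis, had 3 rises among 31 (Chaf1b, Rfc5 and Rrm1), 30 positive differences and a median of 0.44. Dividing immature lymphocytes of thymus also express these genes, and PBS array 1, the array with thymus transcripts, was the higher PBS array. The part of thymus transcripts in these values was not tested. Without PBS array 1 the medians of the mitosis and replication lists were 1.18 and 0.69. Without PBS array 2 only Psrc1 of the mitosis list passed and 0 of the replication list, with medians of 0.63 and 0.25. Psrc1, a microtubule-binding spindle protein that is also a p53 target, was 7.19 and 7.22 with PBS and 8.70, 8.83 and 8.98 with bleomycin (1.63, SE 0.23, adjusted p = 0.00557).

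**Figure D3:**
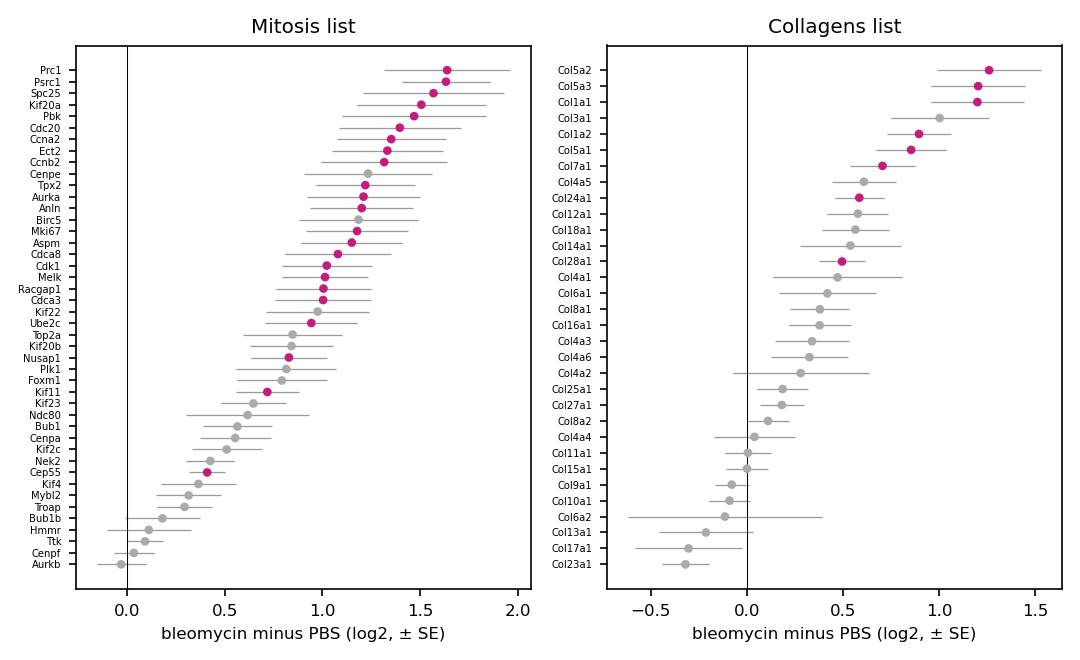
Log2 difference, bleomycin minus PBS under the control blocker (horizontal axis), with its SE as a bar, for the 44 mitosis genes (left) and 32 collagen genes (right), 1 row a gene in order of size. Coloured points are genes that passed the limma test, 23 mitosis genes and 8 collagens, and grey points did not pass. Nearly all mitosis genes lie right of 0, whereas collagens range from Col5a2 at 1.26 to values below 0.

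Promoters of mitotic genes are known for CCAAT boxes and for an element called CHR. In RefSeq promoters the CCAAT box (CCAAT, both strands, 250 bases before the start) was present in 29 of 38 mitosis genes (76.3%), beside 39.3% of all tested genes with a promoter and 38.9% of all risen ones. At least 2 boxes were present in 55.3% of the mitosis promoters, beside 13% of all. The CHR letters TTTGAA were present in 12 of the 38 (31.6%), and in 9 of the 19 mitosis genes that rose (47.4%), beside 15.5% of all and 18% of all risen ones. They were nearly as common in the interferon list (8 of 27, 29.6%) and were present in 6 of 26 chemokine list genes (23.1%). The last 100 bases before the start of 5 risen mitosis genes are shown, since these carry the boxes close together, 5′ to 3′ on the gene's strand with both kinds of match in capitals on either strand (RefSeq, GRCm38.p6). Cdc20 lies on the minus strand at chr4:118437344-118437443, Ccnb2 on the minus strand at chr9:70421555-70421654, Cdk1 on the minus strand at chr10:69352913-69353012, Aurka on the minus strand at chr2:172370571-172370670 and Ube2c on the plus strand at chr2:164769829-164769928.
Cdc20: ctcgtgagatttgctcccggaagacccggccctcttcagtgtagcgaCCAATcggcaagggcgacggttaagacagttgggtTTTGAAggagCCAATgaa
Ccnb2: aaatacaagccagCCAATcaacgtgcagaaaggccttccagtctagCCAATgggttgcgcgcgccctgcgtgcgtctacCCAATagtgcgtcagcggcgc
Cdk1: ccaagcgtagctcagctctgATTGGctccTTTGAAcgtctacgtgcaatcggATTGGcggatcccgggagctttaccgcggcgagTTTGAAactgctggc
Aurka: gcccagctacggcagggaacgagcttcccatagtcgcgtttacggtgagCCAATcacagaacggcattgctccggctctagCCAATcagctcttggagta
Ube2c: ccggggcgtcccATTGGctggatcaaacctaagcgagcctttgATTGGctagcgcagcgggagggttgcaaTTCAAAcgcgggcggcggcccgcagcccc
Ccnb2 holds 3 boxes in this stretch and the others 2 each, and Cdk1 holds 2 CHR letters, Cdc20 and Ube2c 1 each, Ccnb2 and Aurka 0. These matches describe letters and show neither binding nor a cause of the rise.

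Targets of p53, the factor that responds to broken DNA, gave 6 rises and 0 falls among 31 (25 positive, median 0.32): Psrc1, Gdf15, Tnfrsf10b, Ccng1, Zmat3 and Aen. Gdf15, a stress-induced hormone of the TGF-beta superfamily, was 9.31 and 8.98 with PBS and 10.24, 10.31 and 10.57 with bleomycin (1.20, SE 0.26, adjusted p = 0.03). Zmat3, an RNA-binding protein, was 9.55 and 9.36 with PBS and 10.06, 10.10 and 10.13 with bleomycin (0.64, SE 0.13, adjusted p = 0.0244), so that the 6 bleomycin arrays spanned less than the 2 PBS arrays. Cdkn1a, the cell cycle inhibitor best known as a p53 target, was 11.28 and 12.52 with PBS and 12.13, 12.80 and 13.04 with bleomycin, which overlapped and did not pass (0.81, adjusted p = 0.333). Mdm2, which restrains p53, did not pass either (0.32, adjusted p = 0.0895), though it did without PBS array 1 (0.44, adjusted p = 0.019). Without bleomycin arrays 2 and 6 the list held 2 rises, and without PBS array 2 it held 1, Psrc1.

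Collagens form the fibres and sheets of the scar, and 8 of 32 rose with bleomycin while 0 fell (26 positive, median 0.38). Col1a1, a chain of the main fibre-forming collagen, was 13.14 and 12.67 with PBS and 14.01, 14.09 and 14.31 with bleomycin, a 2.30-fold rise (log2 1.20, SE 0.24, adjusted p = 0.0226). Its partner chain Col1a2 was 15.51 and 15.17 with PBS and 16.03, 16.21 and 16.40 with bleomycin (0.90, SE 0.17, adjusted p = 0.0187). All 3 chains of collagen V, which regulates fibre thickness, rose: Col5a1 by 0.86, Col5a2 by 1.26 and Col5a3 by 1.20. Col7a1, the anchoring fibril collagen, Col24a1 and Col28a1 rose by 0.71, 0.59 and 0.50. Col24a1 was dim, at 6.30 and 6.05 with PBS and a median of 6.75 with bleomycin. Its PBS values lay below the array medians of 6.51 to 6.52. Col3a1, which shares fibres with collagen I, was 13.89 and 13.85 with PBS and 14.69, 14.90 and 15 with bleomycin, clearly apart, but its adjusted p was 0.0514 (1.00, SE 0.25), and 0.0498 without PBS array 1. Basement membrane Col4a1 was 13.09 and 14.04 with PBS and overlapped the bleomycin range of 13.71 to 14.36 (0.47, adjusted p = 0.52). Without bleomycin arrays 2 and 6 the list held 3 rises, without PBS array 1 it held 14 rises and 1 fall, and without PBS array 2 it held 0, with a median of 0.38.

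Collagen has to be trimmed and cross-linked outside the cell. Of 23 processing genes 4 rose and 0 fell: the cross-linking enzyme Lox (0.69, adjusted p = 0.0166), the propeptide-cutting proteases Bmp1 (0.85, adjusted p = 0.0166) and Adamts2 (0.80, adjusted p = 0.0438), and the collagen-binding protein Sparc (0.44, adjusted p = 0.0382). The list median was 0.11. Other spots of Bmp1, Adamts2 and Lox gave differences down to -0.27, -0.02 and 0.35. The collagen chaperone Serpinh1 differed by 0.55 and did not pass (adjusted p = 0.154). The list held 2 rises without bleomycin arrays 2 and 6 and 0 without PBS array 2.

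Matrix glycoproteins gave 16 rises and 0 falls among 44 (37 positive, median 0.59). Fn1, fibronectin, an early component of provisional matrix, was 14.35 and 13.40 with PBS and 14.92, 15.24 and 15.70 with bleomycin (1.38, SE 0.27, adjusted p = 0.0199). Thbs1, a thrombospondin able to release active TGF-beta, was 10.87 and 10.46 with PBS and 11.55, 11.99 and 12.59 with bleomycin (1.43, SE 0.28, adjusted p = 0.0225). Ltbp2, a binding partner of microfibrils, was 13.16 and 13.12 with PBS and 14.20, 14.38 and 14.60 with bleomycin (1.252, SE 0.24, adjusted p = 0.0187). In these 3 genes the bleomycin arrays stood above both PBS arrays, by the widest gap for Ltbp2. Lama1, a laminin chain of embryonic basement membranes, had the largest rise of the list (1.86, SE 0.44, adjusted p = 0.0407) and a wide range, 8.96 in bleomycin array 2 to 10.81 in array 5, above 8.30 and 7.26 with PBS. Tnc, tenascin C (0.86), Vcan, versican (0.91), Ccn2, connective tissue growth factor (0.89), Ccn4 (1.14) and Has1, a hyaluronan synthase (0.73), rose too. Postn, periostin, often used as a marker of fibrosis, was 11.68 and 11.05 with PBS and 11.41, 11.65 and 11.99 with bleomycin (0.31, adjusted p = 0.401), which came to 0.63 without PBS array 1 (adjusted p = 0.0373) and to -0.0035 without PBS array 2. Without bleomycin arrays 2 and 6 the list held 4 rises, and without PBS array 2 it held 1, Tgfbi, with a median of 0.54.

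Enzymes that cut matrix, and their inhibitors, gave 6 rises and 0 falls among 27 (median 0.54). Timp1, an inhibitor of metalloproteinases, was 10.30 and 10.04 with PBS and 11.71, 11.98 and 13.04 with bleomycin (2.02, SE 0.37, adjusted p = 0.0186), with array 5 more than 1 above the median. Adamts4, a protease that cleaves proteoglycans, was 7.72 and 7.30 with PBS and 8.99, 9.33 and 10.40 with bleomycin (2.01, SE 0.39, adjusted p = 0.0208), and its other spot differed by 1.00. Mmp12, the elastase of macrophages, was 6.46 and 6.53 with PBS and 7.63, 8.27 and 9.03 with bleomycin (1.75, SE 0.42, adjusted p = 0.0412), where its dimmer spot differed by 0.29. Mmp10 (0.74), Mmp13 (0.67) and Adam8 (0.92) rose as well, but Mmp10 and Mmp13 were dim. Mmp10 was 5.89 and 5.99 with PBS and had a median of 6.696 with bleomycin. Mmp13 was 6.25 and 6.03 with PBS and had a median of 6.82 with bleomycin. The PBS values of both lay below the array medians of 6.51 to 6.52. Timp1, Adamts4 and Mmp12 came to adjusted p-values of 0.148, 0.196 and 0.228 without PBS array 2. Of 25 coagulation and fibrinolysis genes 2 rose, the protein C receptor gene Procr (0.75) and the plasmin-system partner S100a10 (0.55).

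Members of the TGF-beta family and their regulators gave 7 rises and 1 fall among 41, with a median of 0.22. Among ligands, Inhba, a subunit of activin, was 8.22 and 8.01 with PBS and 8.67, 8.91 and 9.49 with bleomycin (0.86, SE 0.18, adjusted p = 0.028), and Tgfb3 rose by 0.60 (adjusted p = 0.03). Tgfb1 itself was 10.22 and 12.42 in the PBS arrays, which enclosed most of the bleomycin range of 9.90 to 11.30, and did not pass (-0.59, adjusted p = 0.627). Among receptors, Tgfbr2 rose by 0.38. Tgfbr1 rose by 0.49, but its other spot differed by -0.18 and the call was lost without PBS array 1 (adjusted p = 0.0654). Acvrl1, an endothelial receptor for BMP9 and BMP10, fell by 0.61 on the log2 scale (adjusted p = 0.0432). Grem1, a secreted antagonist of bone morphogenetic proteins, was 6.37 and 6.14 with PBS and 7.46, 7.71 and 8.21 with bleomycin (1.49, SE 0.27, adjusted p = 0.0186). Pmepa1, a target gene that dampens the signal, rose by 0.71 (adjusted p = 0.0235). The list had 0 calls and a median of 0.13 without PBS array 2.

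Other growth factors were as often lower as higher: 3 of 36 rose, 3 fell, and the median was -0.05. Igf1, a fibroblast growth signal that macrophages secrete, was 10.02 and 9.54 with PBS and 10.81, 10.94 and 11.28 with bleomycin (1.21, SE 0.24, adjusted p = 0.0213), but its 10 spots gave differences from -0.30 to 1.40. Pdgfc, a platelet-derived growth factor, and Hbegf, an epidermal growth factor receptor ligand, rose by 0.84 and 0.62. Of the binding proteins that hold insulin-like growth factors, Igfbp3 was 9.24 and 9.80 with PBS and 7.61, 8.22 and 8.56 with bleomycin (-1.34, SE 0.29, adjusted p = 0.03), and Igfbp6 fell by 0.79 on the log2 scale (adjusted p = 0.0225). Nrn1, neuritin, was 10.09 and 10.24 with PBS and 8.59, 9.07 and 9.28 with bleomycin (-1.18, SE 0.19, adjusted p = 0.0107). Without PBS array 2 none of these 6 passed, and Nrn1 came to an adjusted p of 0.0807.

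Alveolar epithelial lists hardly moved as wholes. Of 23 type 2 cell genes 1 rose, the protease Ctsh (0.81, adjusted p = 0.0166), which processes surfactant protein, and of 20 type 1 cell genes 1 rose, the proteoglycan Spock2, which was 11.86 and 11.81 with PBS and 12.79, 13.01 and 13.17 with bleomycin (1.14, SE 0.20, adjusted p = 0.0184). Their medians were -0.04 and -0.01, and Ctsh and Spock2 did not pass without PBS array 2 (adjusted p = 0.112 and 0.119). Genes of the transitional state between these cells gave 5 rises and 0 falls among 22 (19 positive, median 0.58): Cldn4, Tnfrsf12a, Tubb6, Anxa1 and Hbegf. Cldn4, a tight junction protein, was 7.04 and 7.12 with PBS and 7.83, 8.04 and 8.39 with bleomycin (0.98, SE 0.21, adjusted p = 0.0276). Krt8, the keratin used to name this state, was 13.48 and 13.95 with PBS and 14.12, 14.31 and 14.38 with bleomycin, apart but not past the test (0.57, adjusted p = 0.072). Tnfrsf12a did not pass without PBS array 1 (adjusted p = 0.0595). The transitional list held 1 rise without bleomycin arrays 2 and 6 and 0 without PBS array 2, with medians of 0.59 and 0.46.

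Secretory genes of the airways fell in 5 of 23 cases and rose in 0, with a median of -0.20. Spag11b, a defensin-like secreted peptide, was 9.37 and 8.58 with PBS and 6.90, 7.28 and 7.66 with bleomycin (-1.69, SE 0.27, adjusted p = 0.0107). Tff2, a trefoil peptide that protects mucosa, was 10.94 and 11.27 with PBS and 9.52, 9.92 and 10.12 with bleomycin (-1.22, SE 0.14, adjusted p = 0.00184). Scgb3a1, a secretoglobin, was 15.94 and 15.91 with PBS and 15.04, 15.26 and 15.36 with bleomycin (-0.69, SE 0.12, adjusted p = 0.0166). Lypd2 (-0.92) and the mucin Muc5b (-0.62) fell as well, all bleomycin arrays being below both PBS arrays, and Muc5b did not pass without PBS array 1 (adjusted p = 0.0915). The club cell gene Cyp2f2 did not pass (-0.20, adjusted p = 0.357), and passed without PBS array 1 (-0.37, adjusted p = 0.0458). Scgb1a1, the main secretory protein of club cells, reached the top of the scale in bleomycin arrays 3 and 4 (18.28), so no difference is read from it. Spag11b and Tff2 were the 2 members that passed without PBS array 2. Ciliated cell genes gave 0 calls by limma among 22, with 1 at an unadjusted p under 0.05.

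Enzymes that handle foreign compounds and fatty acids were lower in part. Of 30 xenobiotic metabolism genes 4 fell and 0 rose (median -0.24). Ephx2, soluble epoxide hydrolase, was 8.46 and 9.02 with PBS and 7.48, 7.63 and 7.88 with bleomycin (-1.07, SE 0.19, adjusted p = 0.0186). Cyp2d22, Fmo2 and Aox3 differed by -1.03, -0.96 and -0.91. PBS array 2 was the higher PBS array in all 4, and without it their adjusted p-values were 0.205, 0.407, 0.452 and 0.237. Of 28 lipid and sterol synthesis genes 5 fell and 0 rose (median -0.33): Acss2 and Acly, which make acetyl-CoA, the phosphatidate phosphatase Lpin1, the sterol sensor Insig1, and Mlxipl. Acly was 14.07 and 13.91 with PBS and 13.34, 13.53 and 13.65 with bleomycin (-0.48, SE 0.10, adjusted p = 0.0235). Fat is rich in these enzymes, and its markers were higher in both PBS arrays, as given above. Without PBS array 2, Mlxipl alone of these 5 passed, and without PBS array 1 it did not (-0.65, adjusted p = 0.168), nor did Lpin1 (adjusted p = 0.0591), whose other spot differed by 0.04.

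Of 27 resting fibroblast genes, the resident mesenchyme of the lung, 2 fell and 1 rose (median -0.16): Inmt, a methyltransferase of alveolar fibroblasts, was 16.94 and 17.46 with PBS and 15.81, 16.45 and 16.52 with bleomycin (-0.90, SE 0.19, adjusted p = 0.0258), Slc7a10, an amino acid transporter, fell by 0.77, and the microfibril gene Mfap5 rose by 0.78. Smooth muscle and myofibroblast genes had 0 calls by limma among 22, with 6 at an unadjusted p under 0.05, and Acta2, the actin of myofibroblasts, was 14.13 and 14.77 with PBS and 13.92 to 14.35 with bleomycin (-0.32, adjusted p = 0.542). Of 40 endothelial genes 32 had negative differences (median -0.26), 1 fell, Acvrl1, and 1 rose, Sox17, an arterial transcription factor (0.44, adjusted p = 0.0414). The bleomycin and PBS arrays did not overlap in 13 of the 40, beside 12.6% of all genes tested. The endothelial median was -0.24 without PBS array 1 and -0.14 without PBS array 2. These mesenchymal and vessel lists had 0 calls without PBS array 2, with Inmt at an adjusted p of 0.312 and Sox17 at 0.335.

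Neutrophil, eosinophil and lymphocyte lists had medians below 0. Of 22 neutrophil genes 2 fell, Ngp, a granule protein of immature neutrophils, and Fpr2, a receptor for formyl peptides. Ngp was 8.99 and 9.03 with PBS and 7.33, 7.67 and 8.25 with bleomycin (-1.29, SE 0.23, adjusted p = 0.0184). Fpr2 was 9.51 in each PBS array and 8.33, 8.47 and 8.67 with bleomycin (-1.01, SE 0.23, adjusted p = 0.034). Without PBS array 1 both still passed (adjusted p = 0.0147 and 0.0355). The list median was -0.32, and 0.02 without PBS array 1, and the mean of the list was 10.43 and 10.29 in the PBS arrays and 9.83 to 10.21 with bleomycin. Of 31 T and NK cell genes 1 fell, Cd3e (-0.63, adjusted p = 0.0302), a chain of the T cell receptor complex that thymus also makes, and the median went from -0.20 to 0.07 without PBS array 1, where Cd3e did not pass (-0.51, adjusted p = 0.0572). Satb1, a chromatin organiser of developing T cells, was 10.93 and 10.04 with PBS and 9.31, 9.49 and 9.66 with bleomycin (-0.996, SE 0.19, adjusted p = 0.0201), and -0.55 without PBS array 1 (adjusted p = 0.0542). Leaving out PBS array 2 instead ended the calls of Ngp, Fpr2 and Cd3e. Other members of the T and NK cell list fell in that fit, where the list median was -0.35. These falls rest on PBS array 1 alone, the array with thymus transcripts, and the part of thymus transcripts was not tested. B and plasma cell genes had 0 calls by limma among 18, with 1 at an unadjusted p under 0.05, and eosinophil genes 0 among 10, with 6. All 10 eosinophil differences were negative (median -0.39, and -0.23 without PBS array 1), with list means of 8.598 and 8.25 in the PBS arrays and 7.86 to 8.08 with bleomycin.

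The skeletal muscle and heart lists had 0 calls, with medians of -1.44 and -0.40, but single genes known from striated muscle and outside those lists were among the named falls. Xirp1, an actin-binding muscle protein, was 8.38 and 8.63 with PBS and 7.05, 7.40 and 7.95 with bleomycin (-1.04, SE 0.22, adjusted p = 0.0283). Hspb7, a small heat shock protein of heart and muscle, was 8.85 and 9.21 with PBS and 7.59, 7.93 and 8.54 with bleomycin (-1.03, SE 0.24, adjusted p = 0.0369). Bleomycin array 6, with the lowest muscle signal, was the lowest array for both. Both came to -0.88 without bleomycin arrays 2 and 6 (adjusted p = 0.0761 and 0.102) and did not pass without PBS array 2 (0.243 and 0.32). Coq8a, which serves coenzyme Q synthesis in mitochondria, and Colq, the collagen tail of acetylcholinesterase, fell by 1.03 and 1.05 on the log2 scale, and their other spots differed by -0.16 and -0.20. Neither passed without PBS array 1 (adjusted p = 0.107 and 0.0947) or without PBS array 2 (0.131 and 0.0958). For Colq, bleomycin array 6 was the highest bleomycin array, at 10.49. The PBS arrays under the CAV1 blocker, which lacked muscle transcripts, stood at 11.45 and 11.52 for Colq, beside 11.43 and 10.86 under the control blocker. For Xirp1 they were 7.375 and 7.25, for Hspb7 7.06 and 7.55, and for Coq8a 9.20 and 9.29. Each of these lay below both PBS arrays of the control blocker (10.59 and 10.06 for Coq8a). Under the CAV1 blocker Xirp1, Hspb7 and Coq8a differed by 0.25, 0.48 and 0.35 and Colq by -1.03, and none passed. The part of muscle tissue in the falls of these genes was not tested.

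**Figure D4:**
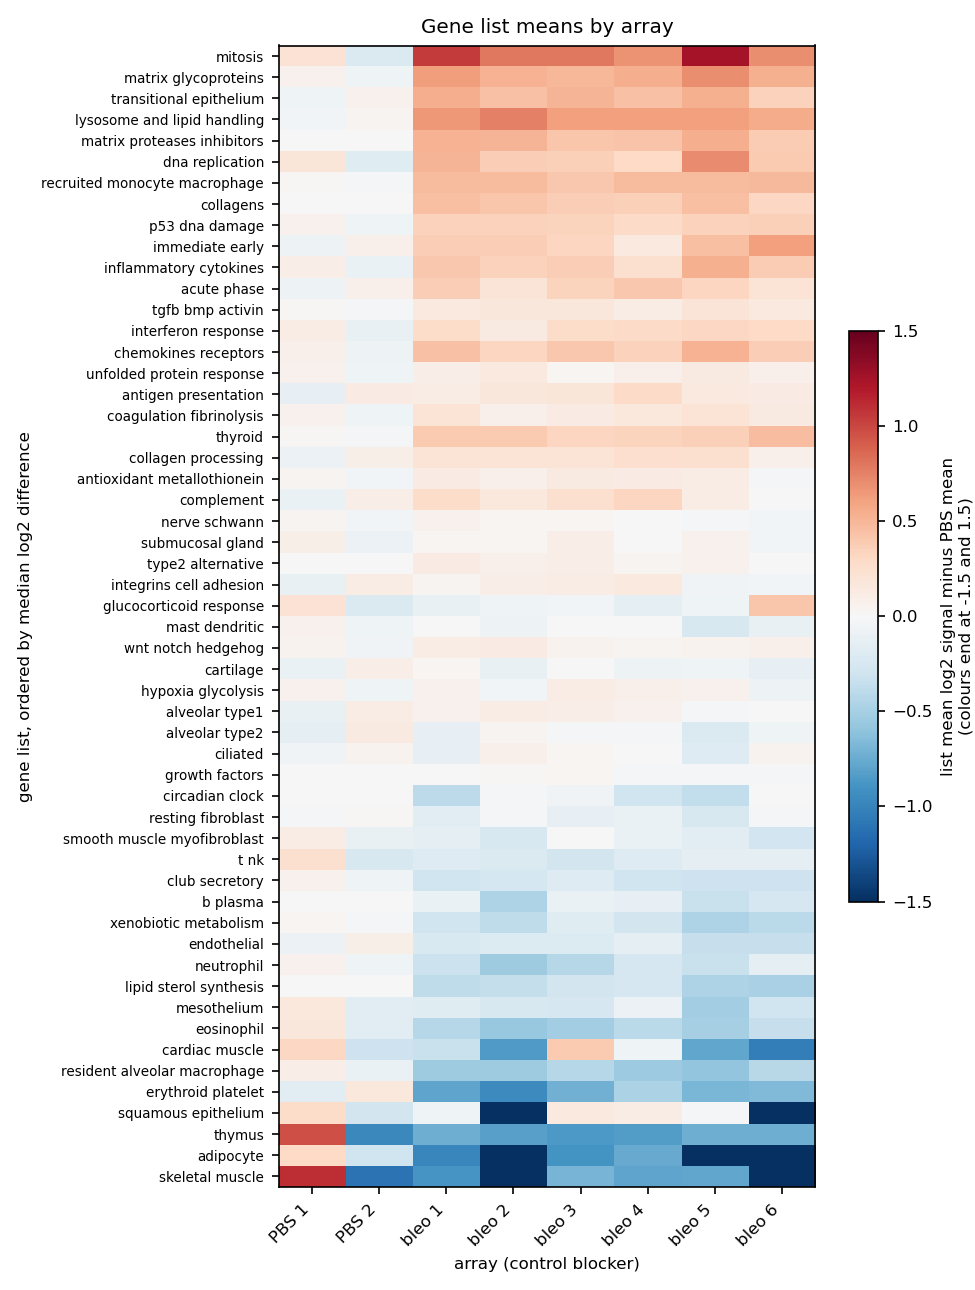
Mean log2 signal of each of the 55 gene lists except caveolae, minus its mean in the 2 PBS arrays, by array (columns) and list (rows, in order of the median difference). Red is higher and blue lower than PBS, and colours end at -1.5 and 1.5. The mitosis row is the reddest over the bleomycin columns, and the skeletal muscle and squamous rows are darkest blue in bleomycin arrays 2 and 6. The adipocyte row is as dark in bleomycin arrays 2, 5 and 6. Skeletal muscle and thymus rows show PBS array 1 above PBS array 2.

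The CAV1 blocker samples allow the same contrast in other lungs, since the arms share no array, though both are estimated in the same fit. There 105 genes were called (0.517%). Of the 398 genes risen under the control blocker 383 were also positive under the CAV1 blocker, where 48.8% of all genes tested were positive, and of the 91 fallen genes 74 were negative. Median differences of these genes were 0.42 and -0.27 in that arm, smaller than 0.74 and -0.71 here. The genes were chosen by passing under the control blocker. Smaller medians in the other arm can therefore come from the choice itself, and whether the response was weaker was not tested. Bleomycin array 1 of that arm also lay near its PBS arrays in some genes. Its Spp1 was 10.28, beside 10.27 and 9.755 with PBS and 12.90 to 13.67 in the other bleomycin arrays. In others it did not, as for Wfdc17 (12.34, beside 11.11 and 11.06 with PBS). Without that array 692 genes were called under the control blocker. In all 47 genes were called in both arms, 9.61% of the 489 and 44.8% of the 105, with 0 in opposite directions. The difference between the arms itself was called for 0 genes by limma (0% of the genes tested, smallest adjusted p = 0.497), with 1873 genes (9.23%) at an unadjusted p under 0.05. This count depends on single PBS arrays: it was 3011 without PBS array 1, 41 without PBS array 2, and 14 without either PBS array of the CAV1 blocker. The PBS samples of the other arm lacked muscle and squamous transcripts, so the arms differ in tissue as well as in blocker, and these cannot be told apart.

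Several genes were near in size in the arms. Psrc1 rose by 1.63 here and by 1.85 under the CAV1 blocker (adjusted p = 0.00413), Wfdc17 by 1.53 and 1.45 (adjusted p = 0.00143), Lilrb4a by 1.05 and 1.04 (adjusted p = 0.00169) and Spag11b differed by -1.69 and -2.14 (adjusted p = 0.00454). Trem2 rose by 1.85 and 2.25 (adjusted p = 0.0432). For others the value under the CAV1 blocker was smaller and did not pass: Ccl2 2.18 and 0.80 (adjusted p = 0.209), Adamts4 2.01 and 0.47 (adjusted p = 0.623), Mx1 1.08 and 0.15 (adjusted p = 0.763) and Ngp -1.29 and -0.18 (adjusted p = 0.759). None of these gene differences between arms passed the test of the difference with all 16 arrays. These genes too were chosen by their values under the control blocker, which favours a smaller value in the other arm. Cav1, the gene whose transcript the blocker was made to cover, was 10.69 and 11.38 with PBS and 10.47, 10.71 and 10.98 with bleomycin under the control blocker (-0.34, SE 0.18, adjusted p = 0.379). It passed without PBS array 1 (-0.68, adjusted p = 0.0294) and differed by 0.007 without PBS array 2 (adjusted p = 0.995). The caveolae list had 0 calls by limma among 11 genes, with 2 at an unadjusted p under 0.05.

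**Figure D5:**
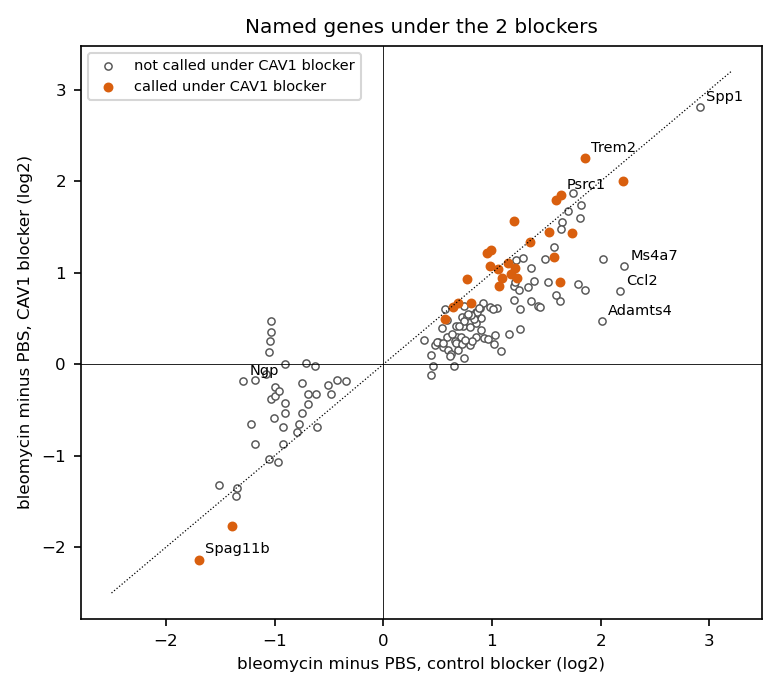
Log2 difference, bleomycin minus PBS, under the control blocker (horizontal axis) and under the CAV1 blocker (vertical axis) for the 159 named genes, 1 point a gene. Filled points are genes that also passed the limma test under the CAV1 blocker, open points did not, and the dotted line marks equal differences. Psrc1, Trem2 and Spag11b lie near the line or beyond it, while Ccl2 (2.18 and 0.80) and Adamts4 (2.01 and 0.47) lie below it.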

How the data were processed

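Total RNA of whole lung, 0.2 µg per array, was labelled with Cy3 for a single-colour Agilent array. The deposited values are log2 intensities, which the authors made with limma per the submitters' processing notes; the version, scanner and background correction were not given in the sources used here, and neither were slides or dates. The values had nearly the same distribution in all 16 arrays (median 6.51 to 6.52) and were used as deposited. Of 62976 spots 31465 had 1 gene symbol, 0 several and 31511 none; RefSeq accessions (GRCm38.p6) matched 29036 of the named spots, and 2429 kept their own symbol. The spot with the highest mean stood for each of 20863 genes, 6086 of which had more than 1, and genes above the 25th percentile in at least 2 arrays were tested. No detection or saturation marks were used, and the number of arrays limits the precision.

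Group means were estimated from the 16 arrays together in limma 3.58.1 under R 4.3.3 (lmFit, eBayes, 12 residual degrees of freedom, two-sided, Benjamini-Hochberg, threshold 0.05), so the CAV1 blocker samples add to the spread only. The fit was also run on simulated data. These had independent arrays with the same spread of a gene in each, so they do not test the difference between the PBS arrays. The members and the 55 gene lists (1265 genes, 1216 tested) were chosen with earlier results of these data known, so lists are described by counts and medians without a test. Named genes were the 25 largest rises and falls whose groups do not overlap, those that stay called in all leave-outs, up to 6 called members per list, up to 3 defining members that were not called, and Cav1; 15 called gene models without a name were not named. Other genes and tissue markers in the text were chosen after their values were seen. Alternatives covered the dim filter, spots, normalization, moderation, array weights, samples in the fit, covariates, the replicate block, a minimum size and leaving out each array. A covariate of thymus markers was chosen after seeing the data.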

Additional observations from a re-analysis of the deposited data

Results flagged for a closer look

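Of 214 values tested among the 6 bleomycin arrays, 8 had a highest or lowest array far from the others by Dixon's ratio, and chance flags about 1 in 20. Among genes these were Trem2 in array 2, high at 13.67, Msr1 in array 4, low at 8.23, Col1a1 in array 5, high at 14.31, and Itih3 in array 1, high at 8.19. Among list means they were recruited monocyte-derived macrophages in array 3, low at 10.79, collagen processing in array 6, low at 11.10, interferon response in array 2, low at 10.55, and glucocorticoid response in array 6, high at 11.79. For the 4 genes the array concerned differed from the PBS arrays in the same direction as its group, as it had to, since their groups do not overlap. With all 16 arrays 0 genes passed the limma test of a difference in response between the blockers (1873 at an unadjusted p under 0.05), and 3011 did without PBS control blocker array 1.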

How the results depend on the processing

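The 489 calls (398 higher, 91 lower) stayed between 392 and 523 with no dim filter, a stricter filter, the mean of a gene's spots, renewed quantile normalization, median centring, and trend and robust moderation. Other settings moved them: 0, 0 and 0 genes (total, higher, lower) with array weights, with 860 at an unadjusted p under 0.05; 215, 185 and 30 with the 8 control blocker samples only; 133, 112 and 21 without bleomycin arrays 2 and 6; 42, 38 and 4 with the 6 tissue-bearing samples only; 281, 226 and 55 with a muscle covariate; 282, 231 and 51 with a squamous covariate; and 115, 97 and 18 with a minimum size of 1. Fewer samples or fewer degrees of freedom enter in the sample subsets, and for the other settings the cause was not tested. A thymus covariate, added after seeing the data and nearly an indicator of PBS array 1, gave 4515, 2780 and 1735, and 3127 genes for the difference between the blockers, against 0 in the fit used. With each array left out in turn the counts ran from 91 to 4075, 14 to 2536 and 20 to 1539, and those of the difference between blockers from 0 to 3011 (41 without PBS array 2, 14 without either PBS CAV1 blocker array).

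With the replicate number as a block (the replicate block) 1, 0 and 1 genes were called, with 1973 at an unadjusted p under 0.05. The labels do not tie a number to an animal or a batch. Deviations of same-numbered samples correlated by 0.318 and 0.309 between the control blocker groups and by -0.69 to 0.352 between the bleomycin groups, so the numbers were not taken as pairs.

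None of the 158 named genes that were called changed sign in any setting, and Cav1, which was not called, differed by 0.007 without PBS array 2, and passed without PBS array 1 (-0.68, adjusted p = 0.0294) and with the thymus covariate (-0.63, adjusted p = 0.0234). Without PBS array 2, 141 no longer passed, without PBS array 1, 14, without bleomycin array 1, 87, and without bleomycin arrays 2, 3, 4, 5 and 6, 48, 32, 16, 52 and 28. In the 50th percentile filter and without bleomycin CAV1 blocker array 1 all kept their side of the threshold. Leaving out an array could not change the sign of a gene whose bleomycin and PBS arrays do not overlap, so those settings do not test the sign.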

Other observations

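Metal-binding and stress genes that the comparison above leaves out moved in small numbers. The metallothioneins, small proteins that bind zinc and copper, rose: Mt2 was 13.74 and 13.17 in the PBS arrays and 14.12, 14.45 and 14.75 in the bleomycin arrays (0.95, SE 0.20, limma adjusted p = 0.0276), and Mt1 rose by 0.57 (adjusted p = 0.035). Slc39a14, a zinc and iron importer, rose by 0.55 and Gclc, which limits glutathione synthesis, by 0.38, so that 4 of 22 antioxidant and metallothionein genes rose and 0 fell (median 0.08). Hmox1, heme oxygenase 1, differed by 0.10 (adjusted p = 0.856). Of 27 immediate-early genes 2 rose, Atf3, a stress-induced transcription factor (1.28, adjusted p = 0.0432), and Egr2 (1.26, adjusted p = 0.0447). Fos (1.15, adjusted p = 0.134) and Egr1 (1.19, adjusted p = 0.16) did not pass.

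Among 19 clock genes Nfil3, a repressor of clock output genes, rose by 0.97 (adjusted p = 0.0387) and Rora, an activator of Bmal1, fell by 0.43 on the log2 scale (adjusted p = 0.0328). In the Notch pathway, cell-contact signalling that steers cell fate, Heyl rose by 0.62 (adjusted p = 0.0295) and Hes2 was 8.64 and 8.52 with PBS and 6.82, 7.19 and 7.58 with bleomycin (-1.40, SE 0.30, adjusted p = 0.03). The calls of the genes in both paragraphs were lost without PBS array 2, with adjusted p-values from 0.0616 (Atf3) to 0.429 (Egr2), and Atf3 did not pass without PBS array 1 either (0.82, adjusted p = 0.131).

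Some large rises belonged to genes known from other epithelia. Slc26a4, the anion exchanger pendrin, was 10.67 and 10.23 with PBS and 11.77, 12.01 and 12.58 with bleomycin (1.65, SE 0.35, adjusted p = 0.0261), while the thyroid gene Tg was low in all arrays. Fxyd4, a regulator of the sodium pump, rose by 2.20 (adjusted p = 0.0186) and Phgr1, a protein of the gut lining, by 1.81 (adjusted p = 0.0187). Without PBS array 2 these 3 came to adjusted p-values of 0.24, 0.159 and 0.147. Fcrl1, a B cell surface protein, was 18.16 in PBS array 1 and 6.62 to 6.97 in the other 7 control blocker arrays.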
